A study of Mus musculus with 12 samples.

Results

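Primary mouse astrocytes carrying an shRNA label against Gadd45g (shGADD45G) were compared with astrocytes carrying the control label shLuc, with 3 libraries in each group, 6 of the 12 libraries of the series. All genes of the deposited knockdown table were taken, 24509 in number. Both groups were total RNA from cortical astrocytes of wild-type C57BL/6J mice at postnatal day 3, transduced and then kept for 1 week in C2 medium without serum. The control name points to luciferase as target. Sources used here give neither the hairpin sequences nor the vector. They do not say if replicates are independent cultures, and the p-values below cover only library-to-library variation that could be technical.

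Astrocytes are the glial cells that clear glutamate and potassium around synapses, couple to each other through gap junctions, and deposit much of the brain's extracellular matrix. GADD45G belongs to a small family of stress-induced proteins that act on a kinase upstream of the p38 and JNK pathways. Dissociated cortical cultures of this kind commonly hold some microglia, the resident macrophages of the brain, whose transcripts then appear in bulk RNA. Because of this, transcripts on lists of microglia and macrophage genes are described first and apart from all others.

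The targeted gene was examined first. Gadd45g lies on chromosome 13 from 51846678 to 51848468 (mm10, plus strand) and is protein coding. Levels are given in CPM, reads of a gene relative to the scaled total of its library. Gadd45g was measured at 139.9, 151 and 129 CPM in shLuc libraries 1, 2 and 3 and at 67.2, 147 and 122 CPM in shGADD45G libraries 1, 2 and 3, the order kept for all values below. Only shGADD45G library 1 was clearly lower, and the groups overlapped. The log2 fold change, always shGADD45G minus shLuc, was -0.32 (SE 0.22, adjusted p = 0.408), and -0.05 without shGADD45G library 1. An exact two-sided permutation test over the 20 assignments of the libraries gave p = 0.3, with 0.1 the smallest possible. Every direction below is therefore one between libraries labelled shGADD45G and libraries labelled shLuc. Transcripts of the other family members were higher: Gadd45a was at 22.7, 21.8 and 23.2 CPM against 44.9, 60.7 and 40.9 CPM, and Gadd45b at 22.0, 23.2 and 22.3 CPM against 41.7, 42.7 and 33.7 CPM. Neither gene's groups overlapped, and both differences passed the test (log2 fold changes 1.12 and 0.81).

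Total counts ran from 15626655 to 18970492 per library. Replicate libraries were unequal in spread. Between replicate pairs, the chi-square per degree of freedom, near 1 for counting error alone, was 2.23 to 2.98 within shLuc and 20.5 to 41.0 within shGADD45G. The test used below takes the same dispersion for both groups of a gene. Its SEs and p-values thus do not measure the wider shGADD45G spread by itself. The first principal component, 51% of the variance, separated the groups. The second, 24.7%, set shGADD45G library 1 against library 3, with library 2 and the controls between them. The small nuclear RNA Rn7sk stood at 8.90, 11.3 and 10.6 CPM in shLuc libraries and at 29.2, 505 and 215 CPM in shGADD45G libraries, and mitochondrial transcripts took 2.09% to 2.20% of counts in shLuc libraries and 1.68%, 2.20% and 3.35% in shGADD45G libraries. The part of these differences in the results was not tested.

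Of 14914 genes tested, 768 (5.15%) were called higher and 786 (5.27%) lower in shGADD45G libraries at an adjusted p under 0.05. The median log2 fold change of all genes tested was 0.01. Large changes were mainly decreases: 332 genes fell and 106 rose by at least 2-fold. In the authors' deposited table, 909 genes were higher and 938 lower at that adjusted p. Leaving out any 1 shLuc library reduced the calls to between 239 and 275 higher and between 291 and 338 lower, although each of the 1554 genes called kept its sign. Between 15192 and 15261 genes were tested in those fits. Of the 1554 genes 538, 537 and 607 were called again without shLuc library 1, 2 and 3. Counts of list members and losses of calls given below for these fits are to be read against this general reduction. Without shGADD45G library 1 the counts rose to 1379 and 1366, and 1498 of the 1554 genes were called again. Where groups are said below not to overlap, this only describes the libraries. Full separation of 3 against 3 libraries gives no less than p = 0.1 in the exact permutation test. The share of all genes so separated is not given here. Most named genes were picked by small p, or for the largest changes by non-overlap itself, so separation adds no support.

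**Figure D1:**
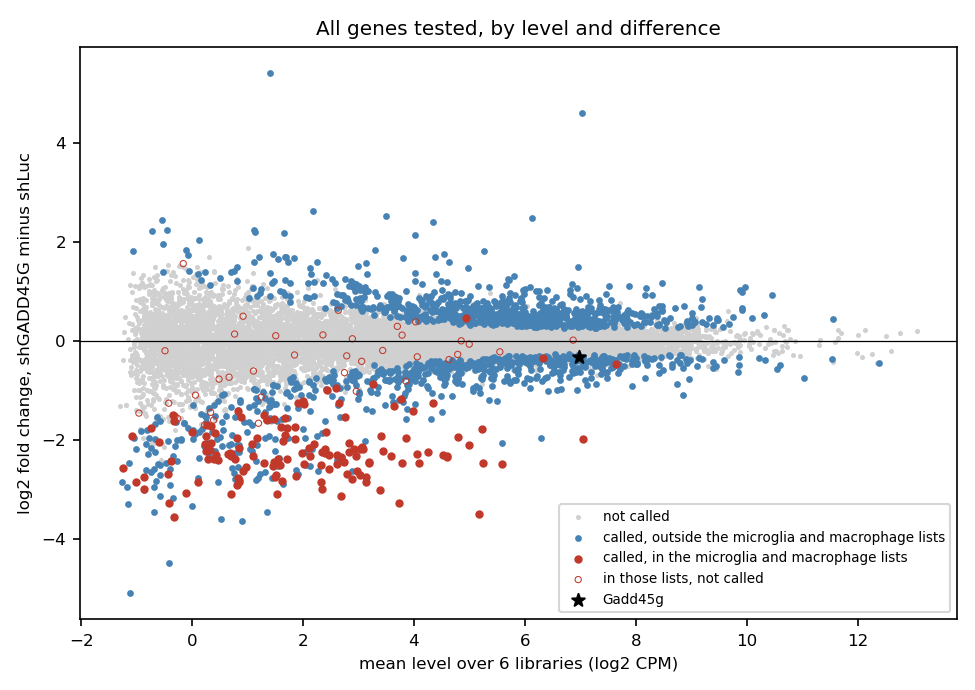
Each point is 1 of 14914 genes; the x axis is the mean level over 6 libraries in log2 CPM and the y axis the log2 fold change, shGADD45G minus shLuc, from the edgeR fit. Red points, the microglia and macrophage genes, lie mostly between -1 and -4, blue points outside those lists lie on both sides of 0, the star marks Gadd45g at -0.32, and the uppermost blue points are Cdsn at 5.41 and, between 4 and 5, Rn7sk.

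Microglial transcripts were lower in every shGADD45G library. On the list of core microglia markers 23 of 25 tested genes fell, against 5.27% of all genes, and none rose (median log2 fold change -2.31). The summed level of these 25 markers was 467, 507 and 427 CPM in shLuc libraries and 48.2, 122 and 124 CPM in shGADD45G libraries. Library 1 was the lowest and the groups did not overlap, and none of the 25 was at 0 in a whole group. On the wider microglia and macrophage list, 137 of 176 fell and 1 rose, the widely expressed TGF-beta receptor gene Tgfbr1, whose call was lost without any 1 shLuc library. These genes made up 17.4% of all decreases and 54.6% of the 174 decreases of at least 4-fold. In bulk RNA, fewer microglia and less RNA per microglial cell cannot be told apart.

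Spi1 encodes the transcription factor PU.1, which directs macrophage and microglial identity. Its level was 12.5, 12.2 and 10.2 CPM in shLuc libraries and 0.969, 1.60 and 1.44 CPM in shGADD45G libraries (log2 fold change -3.12, SE 0.22, adjusted p = 0.000188). The complement gene C1qc went from 40.2, 39.97 and 34.8 CPM to 4.68, 10.9 and 7.92 CPM, and the fractalkine receptor gene Cx3cr1 from 30.9, 29.6 and 26.3 CPM to 2.15, 7.19 and 6.68 CPM. No library of one group reached the other for these genes. The homeostatic receptor P2ry12 was low throughout, at 2.60, 3.04 and 2.11 CPM and 1.29, 1.20 and 2.68 CPM, its groups overlapped, and it did not pass the test (adjusted p = 0.314).

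The remaining decreases of at least 2-fold, 200 genes outside the list, held more genes of this kind. By a rule that asks for a protein-coding gene with a mean of at least 1 CPM and groups that do not overlap, 12 had the largest decrease. They were Spn, Emilin2, Lrmp, Lrrc25, Stap1, Igsf6, Milr1, Fpr1, Arap3, Lat2, Asb2 and Fgd2, with log2 fold changes between -3.62 and -2.67. Counts were low in shGADD45G libraries: Emilin2 had 38, 55 and 48 in shLuc and 1, 5 and 5 in shGADD45G libraries, and Lrmp 79, 105 and 63 and 8, 14 and 0. Spn encodes the leukocyte sialoglycoprotein CD43 and Fpr1 the formyl peptide receptor of phagocytes, and most of the others are known from blood cells. Spn was at 3.71, 3.25 and 3.43 CPM in shLuc libraries and 0.215, 0.114 and 0.524 CPM in shGADD45G libraries, and Fpr1 at 5.25, 4.88 and 3.9997 CPM and 0.269, 0.913 and 0.917 CPM. Absence from the lists is thus no sign that a gene belongs to astrocytes. For many of the genes below, values are also given from a fit with the mean log2 CPM of the core microglia markers as a covariate. That mean was 3.27 to 3.56 in shLuc libraries and 0.26, 1.49 and 1.53 in shGADD45G libraries, so it moved with the group and its adjusted difference is an extrapolation, set largely by how shGADD45G library 1 differs from libraries 2 and 3. In that fit none of the 137 microglia and macrophage genes stayed lower by the test, while 171 of the 768 increases and 94 of the 786 decreases were called again, and 1310 of the 1554 genes kept their sign. Cx3cr1 (0.28) and Tgfbr1 (-0.08) turned direction there. The core markers behind the covariate, Cx3cr1 among them, are themselves on the microglia and macrophage list. The loss of the calls on that list and the turn of Cx3cr1 thus follow largely from how the fit is built. They are no support for any reading. Where a gene below is named without a value from this fit, its call there may be lost.

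Astrocyte genes were retained, at lower levels for part of the list. The 40 astrocyte identity genes in the table, 35 of them tested, summed to 29902, 29722 and 29018 CPM in shLuc libraries and 25202, 26994 and 25948 CPM in shGADD45G libraries. Of the 35 tested 11 fell, against 5.27% of all genes, and none rose, with a median of -0.32, and the other 24 did not pass the test. Without any 1 shLuc library 4 of them fell, and without shGADD45G library 1, 20 fell and 2 rose. The 17 neuron markers in the table summed to 372, 354 and 377 CPM and 331, 313 and 373 CPM, and none of the 10 tested was called. Among 11 ependymal genes 5 fell, among 14 fibroblast and mural genes 2 rose, Col1a2 and Notch3, and among 6 endothelial genes 1 rose and 1 fell. Over all genes tested 5.15% rose and 5.27% fell. Without 1 shLuc library 1 or 2 ependymal genes fell and 1 fibroblast and mural gene rose, the call of Notch3 being lost each time. The 16 fibroblast and mural genes in the table summed to 466, 467 and 456 CPM in shLuc libraries and 836, 581 and 565 CPM in shGADD45G libraries, and their part in the matrix results below was not tested.

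Ntsr2, the neurotensin receptor gene typical of astrocytes, showed the largest decrease of that list. It stood at 75.1, 80.5 and 76.5 CPM in shLuc libraries and 14.7, 19.2 and 22.3 CPM in shGADD45G libraries (log2 fold change -2.05, SE 0.14, adjusted p = 0.000188), with every treated library far below the lowest control. The decrease passed the test without any 1 library and with the microglia covariate (-1.16). Ndrg2, a marker of mature astrocytes, went from 318, 313 and 323 CPM to 130.1, 189.5 and 189 CPM (log2 fold change -0.91, SE 0.13, adjusted p = 0.00263), and its difference with the covariate was 0.01. The gap junction gene Gja1 fell from 799, 786 and 814 CPM to 590.3, 510.2 and 544 CPM (log2 fold change -0.55, SE 0.08, adjusted p = 0.00278), and Mlc1, a membrane protein of astrocyte endfeet, from 1783, 1802 and 1755 CPM to 1241, 1325 and 1028 CPM (log2 fold change -0.57, SE 0.10, adjusted p = 0.0066). For all 4 genes the groups did not overlap. With the covariate Gja1 stayed lower by the test (-0.85), and Mlc1 was not called (-0.71).

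The glutamate transporter genes were lower too, by less, but not with the microglia covariate. Slc1a2 (GLT-1) was at 48.8, 48.3 and 51.1 CPM in shLuc and 25.3, 35.7 and 36.8 CPM in shGADD45G libraries (log2 fold change -0.60, SE 0.14, adjusted p = 0.0206). Slc1a3 (GLAST) was at 1066, 1085 and 1076 CPM and 631, 817 and 881 CPM (log2 fold change -0.47, SE 0.12, adjusted p = 0.0297). Library 1 was lowest for both, and the calls were lost without any 1 shLuc library, for Slc1a3 also without shGADD45G library 2. The intermediate filament gene Gfap, whose rise is the usual sign of reactive astrocytes, was at 1035, 1022 and 1031 CPM and 739, 894 and 840.0 CPM (log2 fold change -0.32, SE 0.09, adjusted p = 0.0439), a call likewise lost without any shLuc library. With the microglia covariate the differences of Slc1a2, Slc1a3 and Gfap turned direction and were not called, at 0.27, 0.28 and 0.07. Of 34 reactive astrocyte genes 4 rose and 5 fell, beside 5.15% and 5.27% of all genes, with a median of 0.01. Without 1 shLuc library 1 or 2 rose and 2 fell. The complement gene C3 (adjusted p = 0.646) and the lipocalin gene Lcn2 (adjusted p = 0.825) split the shGADD45G libraries: C3 stood at 1633, 1623 and 1672 CPM in shLuc and 687, 1747 and 1752 CPM in shGADD45G libraries, and Lcn2 at 159.6, 159 and 157 CPM and 45.05, 228 and 278 CPM. Only library 1 was below the controls for these 2 genes.

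**Figure D2:**
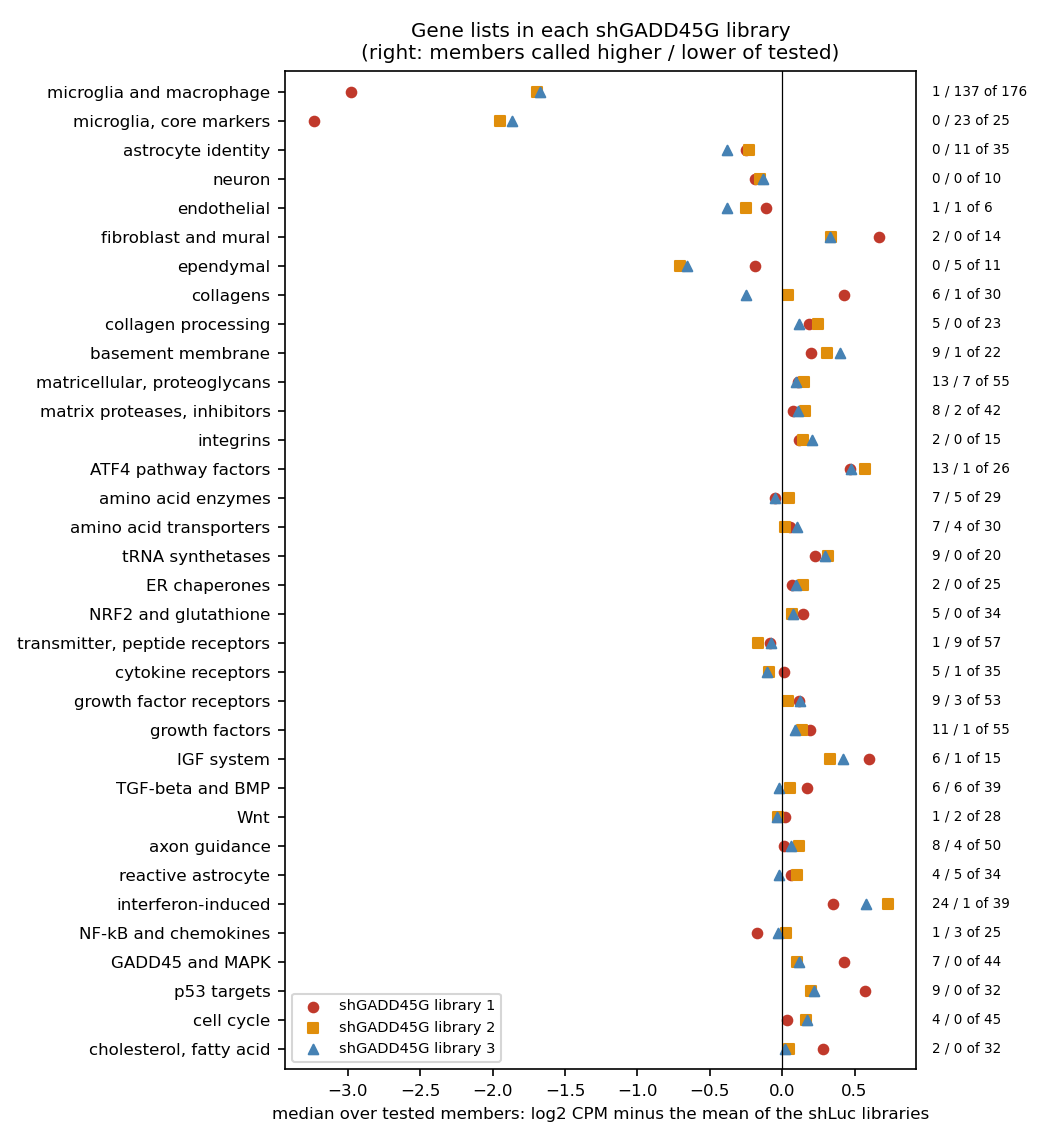
For each gene list, a point gives the median over its tested members of log2 CPM in 1 shGADD45G library minus the mean of the shLuc libraries; numbers at the right are members called higher and lower of those tested. The microglia lists lie near -3 in library 1 and near -2 in libraries 2 and 3. The ATF4 and interferon lists lie to the right of 0 in every library. So do others, among them the IGF system (0.60, 0.33 and 0.42), fibroblast and mural (0.67, 0.34 and 0.33) and p53 target lists. The astrocyte identity and ependymal lists lie to the left in every library, and many other lists lie near 0.

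The extracellular matrix around cells is built from collagens, from basement membrane proteins such as laminins, and from proteoglycans, and it is remodelled by proteases and read by integrins. Matrix transcripts shifted in composition, with more basement membrane and matricellular genes higher than lower, and the lectican proteoglycans of brain lower. Of 22 basement membrane genes 9 rose and 1 fell, with a median log2 fold change of 0.30. Of 55 matricellular and proteoglycan genes 13 rose and 7 fell, with a median of 0.09. Of 30 collagen genes 6 rose and 1 fell, with a median of 0.10, against increases in 5.15% and decreases in 5.27% of all genes. Without 1 shLuc library the increases fell to 5 for basement membrane genes and to 8 or 9 for matricellular genes. Over all genes they fell from 768 to between 239 and 275, a larger loss in proportion. The collagen list differed between libraries: its median lay at 0.42, 0.04 and -0.25 in shGADD45G libraries 1, 2 and 3. With the microglia covariate 3 collagen genes were called higher and 2 lower, with a median of -0.49. In that fit 5 basement membrane genes were higher and 1 lower (median 0.58), and 11 matricellular and proteoglycan genes higher and 5 lower (median 0.13).

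Fibronectin, Fn1, is the adhesive glycoprotein that integrins bind. Its level was 65.9, 73.5 and 73.7 CPM in shLuc libraries and 134, 160.1 and 183 CPM in shGADD45G libraries (log2 fold change 1.16, SE 0.11, adjusted p = 0.000523). Perlecan, Hspg2, a heparan sulphate proteoglycan of basement membranes, went from 51.7, 54.4 and 59.6 CPM to 116, 105 and 118 CPM (log2 fold change 1.03, SE 0.09, adjusted p = 0.00029). The laminin chain gene Lamc1 went from 125, 129 and 116 CPM to 215, 198 and 199 CPM and its partner Lamb1 from 5.07, 4.30 and 5.89 CPM to 10.8, 9.01 and 10.999 CPM. All treated libraries lay above all controls for these 4 genes. With the microglia covariate Fn1 and Hspg2 were called again, and Lamc1 (0.57) and Lamb1 (0.72) were not. The calcium-binding matrix gene Smoc2 was the exception, falling from 2.90, 3.62 and 2.86 CPM to 0.861, 1.20 and 0.524 CPM (log2 fold change -1.84, SE 0.32, adjusted p = 0.00654). It was not called with the covariate (-1.605).

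Tenascin-C, Tnc, is a glycoprotein of developing and injured brain. It rose from 226, 218 and 217 CPM to 368, 574 and 539.8 CPM (log2 fold change 1.16, SE 0.14, adjusted p = 0.00135). Biglycan, Bgn, a small leucine-rich proteoglycan, rose from 44.5, 41.5 and 43.4 CPM to 92.5, 88.9 and 96.2 CPM (log2 fold change 1.10, SE 0.08, adjusted p = 0.000188). The secreted CCN-family genes Wisp1 and Wisp2 rose by 1.22 and 0.87 on the log2 scale, and Cyr61 by 0.71. Versican, Vcan, a lectican of many tissues, rose from 4.51, 2.94 and 3.66 CPM to 9.53, 7.30 and 7.99 CPM (log2 fold change 1.17, SE 0.21, adjusted p = 0.00666). With the microglia covariate Tnc, Bgn and Wisp2 were called again, and Vcan (0.50), Wisp1 (1.145) and Cyr61 (0.43) were not.

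The lecticans of neural tissue moved the other way. Brevican, Bcan, was at 101, 106 and 107 CPM in shLuc and 82.3, 58.4 and 50.3 CPM in shGADD45G libraries (log2 fold change -0.71, SE 0.15, adjusted p = 0.0167), and neurocan, Ncan, at 26.6, 28.8 and 29.9 CPM and 22.0, 15.2 and 14.1 CPM (log2 fold change -0.73, SE 0.16, adjusted p = 0.019). Both were nearer to the controls in library 1 than in libraries 2 and 3, and both calls were lost without any 1 shLuc library and without shGADD45G library 2. Cspg5, neuroglycan C, a transmembrane proteoglycan, fell from 70.3, 69.0 and 71.5 CPM to 32.5, 47.1 and 43.1 CPM (log2 fold change -0.78, SE 0.13, adjusted p = 0.00423), here with library 1 lowest and a difference of 0.01 with the microglia covariate. Emilin2 and Tgfbi also fell, by 3.58 and 2.61 on the log2 scale. Macrophages are a known source of both proteins, and Tgfbi was lowest in the library with the least microglial RNA, at 0, 2.28 and 1.83 CPM against 6.55, 8.92 and 9.26 CPM in shLuc libraries. The Tgfbi call was lost without any 1 shLuc library, and with the microglia covariate its difference turned to 3.14, not called. The part of microglial RNA in the decreases of both genes was not tested.

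Among collagens, Col8a1, a short-chain network collagen, rose the most: 185, 189 and 190.0 CPM in shLuc and 287, 448 and 456 CPM in shGADD45G libraries (log2 fold change 1.08, SE 0.15, adjusted p = 0.00231). Col1a2, Col5a2 and Col12a1 rose by 0.65, 0.65 and 0.79. With the microglia covariate Col8a1 and Col12a1 were called again, and Col1a2 (0.35) and Col5a2 (0.07) were not. The enzymes that hydroxylate and crosslink collagen followed in part: 5 of 23 collagen processing genes rose and none fell, against 5.15% and 5.27% of all genes. Of the 23, 1 or 2 were called without a shLuc library. The 5 included the prolyl hydroxylase subunit P4ha1, which went from 293, 279 and 278 CPM to 469, 415 and 411 CPM (log2 fold change 0.61, SE 0.08, adjusted p = 0.0017). P4ha1 was not called with the microglia covariate (0.28). Of 15 integrin genes 2 rose (13.3%, against 5.15% of all genes). Itga3, a laminin-binding subunit, stood at 116, 118 and 115 CPM and 316, 230.5 and 209.8 CPM (log2 fold change 1.12, SE 0.14, adjusted p = 0.00128), and Itgav, of the RGD-binding integrins, at 155, 159 and 175 CPM and 239, 239.8 and 254 CPM (log2 fold change 0.58, SE 0.08, adjusted p = 0.00179). With the microglia covariate neither Itga3 (0.17) nor Itgav (0.64) was called, while 4 of the 15 integrin genes were called higher and 1 lower. Of 42 matrix protease and inhibitor genes 8 rose (19%, against 5.15% of all genes) and 2 fell (4.76%, against 5.27%). Without 1 shLuc library 4 or 5 rose and none fell. Serpinf1, the anti-angiogenic serpin PEDF, rose from 31.2, 35.2 and 30.6 CPM to 64.6, 86.0 and 89.8 CPM (log2 fold change 1.31, SE 0.13, adjusted p = 0.000523), and the metalloprotease inhibitor gene Timp3 from 747, 750.0 and 776 CPM to 1115, 1171 and 1209.8 CPM (log2 fold change 0.62, SE 0.07, adjusted p = 0.00125).

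**Figure D3:**
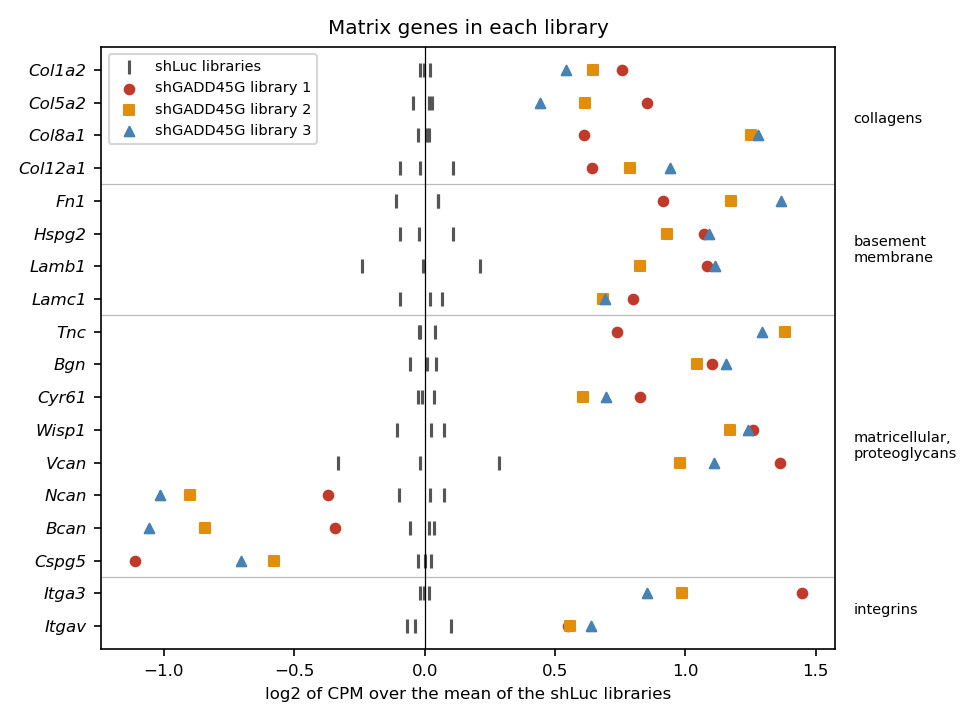
For 18 matrix genes, grouped at the right, the x axis gives log2 of CPM in each library over the mean of the 3 shLuc libraries; grey ticks are shLuc libraries and coloured points shGADD45G libraries. Every coloured point of the collagen, basement membrane and integrin genes shown lies right of the controls, and those of Ncan, Bcan and Cspg5 lie left.

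Cells that lack amino acids or handle misfolded protein phosphorylate the initiation factor eIF2-alpha, which slows protein synthesis but favours translation of the factor ATF4. ATF4 then switches on genes for amino acid uptake, amino acid synthesis and tRNA charging, often through a DNA element in their promoters. Part of this programme was higher in shGADD45G libraries. Increases are read against those in 5.15% of all genes tested, and decreases against 5.27%. Of 26 ATF4 pathway factors tested 13 rose and 1 fell (median log2 fold change 0.50), and of 20 cytosolic tRNA synthetase genes 9 rose and none fell, with a median of 0.27. Amino acid transporters were split, with 7 of 30 higher and 4 lower, and so were amino acid enzymes, with 7 of 29 higher and 5 lower. Of the 25 chaperones and sensors of the endoplasmic reticulum 2 rose, Edem1 and Ern1, a share near that over all genes, and neither was called without any 1 shLuc library. Without 1 shLuc library 8 or 9 ATF4 factors, 4 synthetases, 4 transporters and 2 or 3 enzymes were called higher, and without shGADD45G library 1 the numbers were 18, 11, 10 and 11. The list had been drawn up with earlier results of these data known and holds Cdsn, a skin adhesion gene that is no established member of the pathway.

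The element that ATF4 and its C/EBP partners bind was searched as TGATGNAA on both strands in the 250 bases before each gene's start, in RefSeq promoter sequences (GRCm38.p6). It was found in 3.91% of 27025 promoters and in 2.39% of the 11024 promoters of genes tested. Among the 4 amino acid stress lists (factors, enzymes, transporters, synthetases), 29 of the 35 genes that rose had a promoter sequence and 10 of these held a match (34.5%). The genes were Aars, Asns, Chac1, Gars, Nupr1, Pck2, Pycr1, Slc7a11, Tars and Vldlr. Of the 58 list genes not called, 41 had a promoter sequence and 3 held a match (7.32%), and of the 8 with a promoter sequence among the 9 that fell, 1 held a match (12.5%), Slc7a7. A match is a string of letters, not an observed binding site. The lists gather genes mostly known for this response, so a share above that of all genes follows in part from their choice. That share is no support for any reading. The stretch around the match is printed for 6 of these genes with large increases, in the direction of transcription, with every match in capitals.
Asns: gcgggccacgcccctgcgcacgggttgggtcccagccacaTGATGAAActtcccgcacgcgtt
Slc7a11: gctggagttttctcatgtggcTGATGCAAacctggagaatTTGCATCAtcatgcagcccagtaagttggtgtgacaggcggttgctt
Chac1: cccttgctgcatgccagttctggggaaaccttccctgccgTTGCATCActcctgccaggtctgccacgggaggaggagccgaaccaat
Nupr1: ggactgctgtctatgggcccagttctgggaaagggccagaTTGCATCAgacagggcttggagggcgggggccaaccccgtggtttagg
Pycr1: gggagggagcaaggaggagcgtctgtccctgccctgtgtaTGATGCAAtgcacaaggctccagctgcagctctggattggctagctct
Vldlr: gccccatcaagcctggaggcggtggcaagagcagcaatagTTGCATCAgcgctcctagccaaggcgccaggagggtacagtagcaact
Slc7a11 holds the element in both orientations, and Chac1, Nupr1 and Vldlr hold it reversed, as TTGCATCA. The windows lie at chr6:7693210-7693272 (minus strand), chr3:50443614-50443700 (minus), chr2:119351009-119351096 (plus), chr7:126625533-126625620 (minus), chr11:120643804-120643891 (minus) and chr19:27216780-27216867 (plus).

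Among the factors, Atf4 itself rose at the transcript level, from 99.6, 93.5 and 92.8 CPM to 181, 141 and 124 CPM (log2 fold change 0.64, SE 0.13, adjusted p = 0.0113), most in library 1. Ddit3, the factor CHOP, rose from 34.7, 38.6 and 33.3 CPM to 47.0, 64.8 and 61.9 CPM (log2 fold change 0.70, SE 0.13, adjusted p = 0.0077), least in library 1. Trib3, a pseudokinase that ATF4 and CHOP induce, rose from 7.23, 6.24 and 5.94 CPM to 22.1, 42.8 and 38.0 CPM (log2 fold change 2.40, SE 0.23, adjusted p = 0.000515). For these 3 genes the groups did not overlap. The call of Atf4 was lost without any 1 shLuc library, and with the microglia covariate its difference turned to -0.19 and was not called. The call of Ddit3 was lost without shLuc library 1 or 3, and that of Trib3 was kept without any 1 library.

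Chac1, an enzyme that breaks down glutathione, was at 10.5, 10.3 and 8.46 CPM in shLuc and 19.5, 41.8 and 33.8 CPM in shGADD45G libraries (log2 fold change 1.70, SE 0.25, adjusted p = 0.00253). Nupr1, a small stress-induced nuclear protein, was at 5.38, 6.03 and 6.74 CPM and 38.1, 24.3 and 17.2 CPM (log2 fold change 2.13, SE 0.26, adjusted p = 0.00135). These genes differed in which library was highest, library 2 for Chac1 and library 1 for Nupr1. With the microglia covariate Chac1 was called again (3.38) and Nupr1 was not (0.46). Vldlr, a lipoprotein and reelin receptor and an ATF4 target in mouse cells, was even across the treated libraries, at 12.2, 10.5 and 12.97 CPM and 29.0, 29.2 and 32.9 CPM (log2 fold change 1.35, SE 0.12, adjusted p = 0.000379). Cdsn, corneodesmosin, gave the largest increase of all named genes. Its counts were 1, 1 and 4 in shLuc libraries and 31, 122 and 105 in shGADD45G libraries (log2 fold change 5.41, SE 0.74, adjusted p = 0.00195).

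Enzymes that rose included those of asparagine, proline and mitochondrial folate metabolism. Mthfd2, of mitochondrial folate metabolism, had the smallest p of all genes tested: 16.9, 17.2 and 15.9 CPM in shLuc and 48.6, 45.7 and 44.8 CPM in shGADD45G libraries (log2 fold change 1.47, SE 0.10, adjusted p = 0.000188). Asparagine synthetase, Asns, rose from 30.7, 30.7 and 33.1 CPM to 61.4, 78.8 and 81.5 CPM (log2 fold change 1.23, SE 0.12, adjusted p = 0.000498). The proline synthesis genes Aldh18a1 and Pycr1 rose by 0.64 and 0.88. The Pycr1 call was lost without any 1 shLuc library and without shGADD45G library 2, and the Aldh18a1 call without shLuc library 1 or 3 and without shGADD45G library 2. By contrast, Prodh, which starts proline breakdown, fell from 35.2, 35.0 and 32.3 CPM to 17.8, 21.3 and 19.2 CPM (log2 fold change -0.81, SE 0.11, adjusted p = 0.00165). Glutamate dehydrogenase, Glud1, fell from 819.7, 813 and 801 CPM to 578, 577 and 575 CPM (log2 fold change -0.49, SE 0.07, adjusted p = 0.00234), with the treated libraries nearly equal. With the microglia covariate neither Prodh (-0.45) nor Glud1 (-0.50) was called, while Mthfd2, Asns, Aldh18a1 and Pycr1 were called again. The serine synthesis genes, often induced with this programme, were not called: Phgdh was at 239, 241 and 231 CPM and 218, 272 and 255 CPM, and Psat1 at 264, 261 and 265 CPM and 215, 256 and 284 CPM, with overlapping groups (adjusted p = 0.688 and 0.736).

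Of the transporters, Slc7a11, the cystine and glutamate exchanger, rose the most, from 2.84, 4.25 and 2.80 CPM to 14.05, 18.7 and 24.9 CPM (log2 fold change 2.53, SE 0.25, adjusted p = 0.000515). Slc7a1 and Slc7a3 carry cationic amino acids. Slc7a1 went from 30.5, 29.1 and 32.1 CPM to 68.8, 75.4 and 73.7 CPM (log2 fold change 1.25, SE 0.09, adjusted p = 0.000188), while Slc7a3 was low, at 1.67, 1.52 and 1.71 CPM and 2.37, 6.33 and 6.22 CPM, with library 1 close to the controls (log2 fold change 1.60, SE 0.37, adjusted p = 0.0231). The Slc7a3 call was lost without any shLuc library and without shGADD45G library 2 or 3. Slc7a5, the large neutral amino acid transporter LAT1, went from 84.5, 76.6 and 86.4 CPM to 151, 145 and 159.8 CPM (log2 fold change 0.88, SE 0.08, adjusted p = 0.000404), and Slc38a2 (SNAT2) from 42.0, 41.5 and 41.7 CPM to 74.9, 88.9 and 97.0 CPM (log2 fold change 1.06, SE 0.10, adjusted p = 0.000515). The 4 transporters that fell were Slc1a2, Slc1a3, Slc7a7 and Slc16a10, the last from 2.90, 2.73 and 2.86 CPM to 0.108, 0.685 and 0.655 CPM and, with the microglia covariate, turned to 0.83. Slc7a7 fell by 0.82 on the log2 scale, a call lost without any 1 shLuc library. Without any 1 shLuc library 1 transporter was called lower, Slc16a10.

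The increases of the 9 tRNA synthetase genes were small. Iars, for isoleucine, was at 57.4, 61.0 and 53.5 CPM and 97.8, 90.1 and 97.0 CPM (log2 fold change 0.73, SE 0.08, adjusted p = 0.000983), and Gars, for glycine, at 68.2, 69.3 and 69.9 CPM and 93.8, 101 and 117 CPM (log2 fold change 0.59, SE 0.09, adjusted p = 0.00397). Sars and Eprs rose by 0.54 and 0.50. The lowest of the 9 increases was that of Nars, at 0.26, a call lost without any shLuc library and without shGADD45G library 2. The chaperone BiP, Hspa5, the main marker of unfolded protein in the endoplasmic reticulum, stood at 571, 551 and 564 CPM and 594, 689 and 716 CPM, a difference that missed the threshold (log2 fold change 0.25, SE 0.09, adjusted p = 0.109). With the microglia covariate, 11 of the 26 ATF4 factors, 9 of 30 transporters, 8 of 29 enzymes and 5 of 20 synthetases were called higher. Of the synthetases named here, Iars (0.67) and Nars (0.33) were not called in that fit. Of 34 NRF2 and glutathione genes 5 rose, against 5.15% of all genes, Slc7a11 and Chac1 among them.

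**Figure D4:**
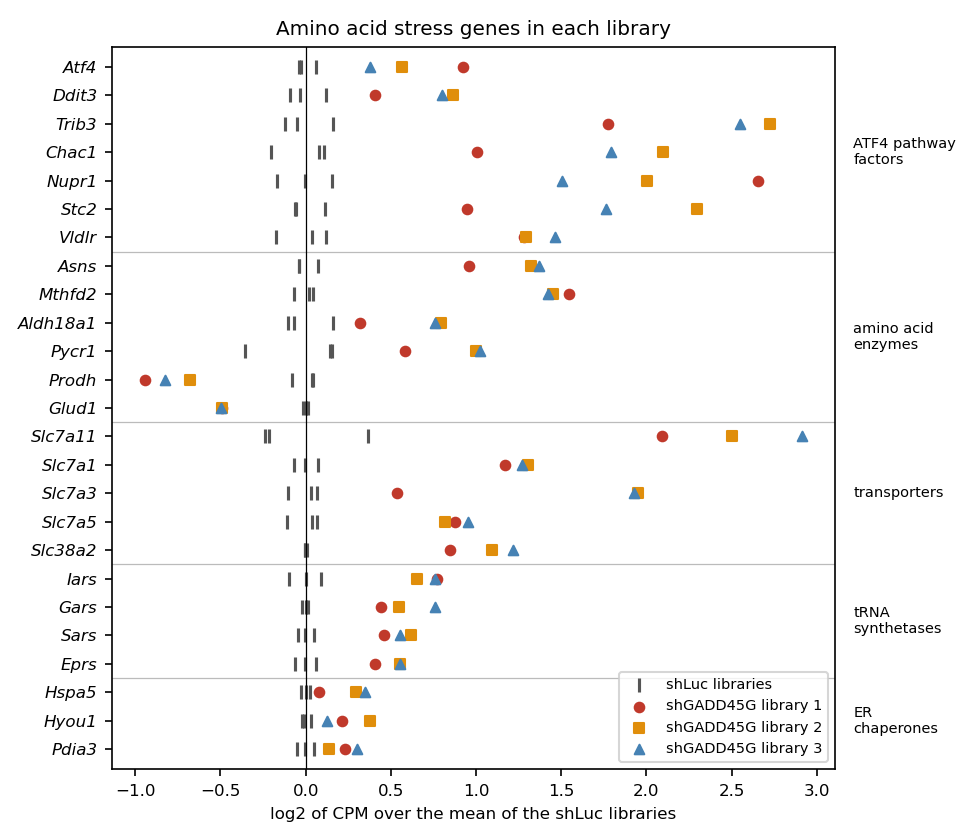
For 25 genes of the amino acid stress programme and the endoplasmic reticulum, the x axis gives log2 of CPM over the mean of the 3 shLuc libraries; grey ticks are shLuc libraries and coloured points shGADD45G libraries. Trib3, Chac1, Stc2 and Slc7a3 are lowest in library 1 among the treated libraries, Nupr1 and Atf4 are highest there, and Hspa5, Hyou1 and Pdia3, none of which was called, lie within 0.5 of 0.

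Interferons induce antiviral genes through promoter elements bound by the STAT and IRF factors, and astrocytes and microglia both respond to them. Interferon-induced genes were higher: 24 of 39 rose and 1 fell, against 5.15% and 5.27% of all genes. The median log2 fold change was 0.58, with medians of 0.35, 0.73 and 0.58 in shGADD45G libraries 1, 2 and 3. Ifi44 rose from 15.7, 17.2 and 18.1 CPM to 34.4, 62.7 and 83.1 CPM (log2 fold change 1.82, SE 0.26, adjusted p = 0.0025), and Rsad2, the antiviral enzyme viperin, from 12.7, 16.6 and 14.7 CPM to 37.1, 32.0 and 31.3 CPM (log2 fold change 1.19, SE 0.13, adjusted p = 0.000783). Ifit1, which binds foreign RNA, rose from 73.4, 72.1 and 76.8 CPM to 116, 141 and 195 CPM (log2 fold change 1.03, SE 0.16, adjusted p = 0.0036). These 3 genes did not overlap between groups. With the microglia covariate Ifi44 and Ifit1 were called again and Rsad2 (0.84) was not. In that fit 22 of the 39 were called higher and none lower (median 1.01). Oas3, at under 1 CPM, was the gene that fell, a call lost without any 1 shLuc library. The count of increases was 9 to 11 without 1 shLuc library, 16 and 17 without shGADD45G library 2 and 3, and 30 without library 1.

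The core of the interferon-stimulated response element was searched as GAAANNGAAA on both strands of the same windows. It was found in 3.46% of all promoters and 3.17% of those of genes tested. Of the 24 interferon genes that rose, 19 had a promoter sequence and 12 of these held a match (63.2%). Of the 14 not called, 9 had one and 2 held a match (22.2%). The promoter of Oas3, the gene that fell, held a match. Ifit3 and Ifit3b, both among the 12, hold the same stretch around the match. The list gathers genes known to respond to interferon, so a share above that of all genes follows in part from its choice. That share is no support for any reading. The element is shown for Ifit1, Rsad2 and Isg15, matches in capitals, overlapping matches joined.
Ifit1: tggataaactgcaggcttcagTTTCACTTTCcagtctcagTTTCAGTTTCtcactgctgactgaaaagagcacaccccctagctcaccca
Rsad2: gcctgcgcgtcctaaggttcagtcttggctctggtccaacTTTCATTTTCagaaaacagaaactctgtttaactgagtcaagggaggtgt
Isg15: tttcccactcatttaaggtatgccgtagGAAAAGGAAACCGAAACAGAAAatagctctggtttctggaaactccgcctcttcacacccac
Ifit1 holds the element as its reverse complement at separate positions, and in Isg15 matches overlap to form 1 longer run. The windows lie at chr19:34640764-34640853 (plus strand), chr12:26456523-26456612 (minus) and chr4:156200835-156200924 (minus).

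Receptors for transmitters and peptides were mostly lower where they were called. Of 57 such genes tested 9 fell, against 5.27% of all genes, and 1 rose (median log2 fold change -0.15), and the other 47 did not pass the test. Beside Ntsr2, the endothelin receptor gene Ednrb, which is abundant on cultured astrocytes, was lower: 636, 605 and 644 CPM in shLuc libraries and 284, 274 and 326 CPM in shGADD45G libraries (log2 fold change -1.09, SE 0.09, adjusted p = 0.000281). The alpha-adrenergic receptor gene Adra2a fell from 43.1, 49.1 and 48.9 CPM to 27.4, 28.6 and 27.4 CPM (log2 fold change -0.76, SE 0.09, adjusted p = 0.00133). The AMPA receptor subunit gene Gria1 fell from 38.0, 37.4 and 37.9 CPM to 16.6, 24.5 and 21.5 CPM (log2 fold change -0.86, SE 0.14, adjusted p = 0.00391), and the PACAP receptor gene Adcyap1r1 from 15.6, 17.0 and 18.5 CPM to 9.69, 10.1 and 10.3 CPM (log2 fold change -0.77, SE 0.12, adjusted p = 0.00423). No treated library of these 4 genes reached a control library. Gria3, another AMPA subunit, was the receptor that rose (0.57). With the microglia covariate Ednrb stayed lower by the test (-0.97), and Gria1 lay at -0.06. Adra2a (-0.69) and Adcyap1r1 (-0.66) were not called there. The count of decreases was 6 without any 1 shLuc library.

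Cytokine and growth factor receptors gave a mixed picture. Of 35 cytokine receptor genes 5 rose and 1 fell, against increases in 5.15% and decreases in 5.27% of all genes. The 1 was Cntfr, the ciliary neurotrophic factor receptor, which went from 16.7, 17.7 and 15.6 CPM to 8.93, 7.87 and 6.22 CPM (log2 fold change -1.11, SE 0.15, adjusted p = 0.00208). The interleukin-1 receptor accessory gene Il1rap rose from 33.9, 35.7 and 32.6 CPM to 55.8, 48.5 and 62.2 CPM (log2 fold change 0.70, SE 0.11, adjusted p = 0.00326), and Tnfrsf10b, a death receptor for TRAIL, from 59.0, 59.7 and 55.6 CPM to 118, 84.1 and 93.8 CPM (log2 fold change 0.76, SE 0.12, adjusted p = 0.00369). Of 53 growth factor and lipoprotein receptor genes 9 rose (17%) and 3 fell (5.66%, a share near that over all genes). Lrp2, the endocytic receptor megalin, had the largest increase, from 64.2, 60.4 and 70.0 CPM to 184, 158 and 207 CPM (log2 fold change 1.50, SE 0.11, adjusted p = 0.000188), kept without any 1 library and with the covariate (1.44). The collagen-binding receptor tyrosine kinase gene Ddr2 rose from 133, 131 and 140.4 CPM to 210.2, 196 and 229.9 CPM (log2 fold change 0.65, SE 0.08, adjusted p = 0.00141). Without 1 shLuc library, 3 or 4 growth factor receptor genes and 2 cytokine receptor genes were called higher. With the microglia covariate Cntfr stayed lower by the test (-1.66), while Il1rap (0.74), Tnfrsf10b (0.07) and Ddr2 (0.67) were not called.

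Growth factor transcripts were higher where they were called, with 1 exception. Of 55 genes 11 rose and 1 fell, against 5.15% and 5.27% of all genes, with a median of 0.07. Vegfa, the vascular growth factor, was at 35.3, 36.2 and 35.8 CPM in shLuc and 72.7, 75.0 and 62.2 CPM in shGADD45G libraries (log2 fold change 0.97, SE 0.09, adjusted p = 0.000515). The neurotrophin gene Bdnf was low and rose from 5.31, 4.56 and 3.83 CPM to 11.5, 9.47 and 10.1 CPM (log2 fold change 1.18, SE 0.18, adjusted p = 0.00291). Pdgfa, which drives oligodendrocyte precursors, rose from 77.8, 78.0 and 76.5 CPM to 116, 103 and 113 CPM (log2 fold change 0.52, SE 0.08, adjusted p = 0.00326). Groups did not overlap for any of the 3. The cytokine gene Lif rose from 8.90, 8.08 and 7.94 CPM to 20.3, 14.7 and 12.2 CPM (log2 fold change 0.93, SE 0.19, adjusted p = 0.0135), highest in library 1, its call was lost without any shLuc library, and it turned to -0.19 with the microglia covariate. Noggin, Nog, which blocks BMP ligands, was the growth factor gene that fell, from 19.0, 20.6 and 20.9 CPM to 11.8, 13.6 and 11.5 CPM (log2 fold change -0.71, SE 0.12, adjusted p = 0.0055). With the microglia covariate 1 of the 55 was called higher and 3 lower, and without 1 shLuc library 4 to 6 were called higher. Vegfa (0.82), Bdnf (0.80), Pdgfa (0.36) and Nog (-0.56) were not called with that covariate.

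In the insulin-like growth factor (IGF) system 6 of 15 genes rose and 1 fell, against 5.15% and 5.27% of all genes, with a median of 0.35. Pappa, a protease that frees IGF from its binding proteins, rose from 0.865, 0.892 and 2.00 CPM to 7.80, 8.56 and 7.01 CPM (log2 fold change 2.63, SE 0.30, adjusted p = 0.00093). Its difference with the microglia covariate was 2.48 and missed the threshold. Stc2, which inhibits that protease, rose as well, from 1.36, 1.21 and 1.20 CPM to 2.42, 6.16 and 4.26 CPM (log2 fold change 1.76, SE 0.35, adjusted p = 0.0122), a call lost without any shLuc library. Without 1 shLuc library 4 genes of the list were called higher. The binding protein genes differed among themselves. Igfbp2 rose from 642, 638 and 584 CPM to 1597, 1216 and 996 CPM (log2 fold change 1.03, SE 0.15, adjusted p = 0.0025) and Igfbp3 from 977, 983 and 942 CPM to 2369, 1577 and 1609 CPM (log2 fold change 0.94, SE 0.14, adjusted p = 0.00349), both highest in library 1. With the microglia covariate neither was called, Igfbp2 at 0.09 and Igfbp3 at -0.08. Igfbp5 fell from 6126, 6115 and 6226 CPM to 4805, 4527 and 4241 CPM (log2 fold change -0.44, SE 0.08, adjusted p = 0.00927), a call lost without any 1 shLuc library. The receptor adaptor gene Irs1 rose evenly, to 59.9, 58.0 and 59.1 CPM from 39.9, 38.7 and 39.0 CPM (log2 fold change 0.59, SE 0.08, adjusted p = 0.00179). Irs1 was not called with the microglia covariate (0.525).

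Of 50 axon guidance genes 8 rose and 4 fell, against 5.15% and 5.27% of all genes, the decreases all in transmembrane semaphorins. The secreted repellents Slit2 and Slit3 rose from 50.6, 52.5 and 49.1 CPM to 103, 99.1 and 107 CPM (log2 fold change 1.02, SE 0.08, adjusted p = 0.000226) and from 6.67, 6.09 and 7.31 CPM to 24.0, 17.9 and 22.0 CPM (log2 fold change 1.67, SE 0.15, adjusted p = 0.000404). Sema3f, a secreted semaphorin, rose from 91.9, 101 and 95.5 CPM to 135, 203 and 202 CPM (log2 fold change 0.90, SE 0.14, adjusted p = 0.00397), less in library 1. All treated libraries stood above the controls for these 3 genes, and without 1 shLuc library 5 genes of the list were called higher and at most 1 lower. With the microglia covariate Slit2 and Sema3f were called again, and Slit3 (1.14) was not. In the TGF-beta and BMP list 6 of 39 rose and 6 fell, against the same shares of all genes. Without any 1 shLuc library 3 rose and 3 fell. Ltbp2, a matrix protein of the latent TGF-beta binding family, rose from 116, 124 and 121 CPM to 229, 233 and 237 CPM (log2 fold change 0.95, SE 0.07, adjusted p = 0.000222), and the BMP-responsive gene Id4 fell from 421, 412 and 412 CPM to 298, 257 and 248 CPM (log2 fold change -0.63, SE 0.09, adjusted p = 0.00189). The ligand gene Tgfb1, which microglia are known to make, fell from 7.85, 8.45 and 6.29 CPM to 1.78, 2.40 and 1.83 CPM (log2 fold change -1.91, SE 0.22, adjusted p = 0.00093). The summed microglia markers, above, fell in the same libraries, and their part in the Tgfb1 difference was not tested. With the microglia covariate Tgfb1 was not called (-1.26), while Ltbp2 and Id4 were called again. Of 28 Wnt genes 1 rose and 2 fell, the ligand gene Wnt5a falling from 199, 195 and 203 CPM to 161, 123 and 122 CPM (log2 fold change -0.56, SE 0.11, adjusted p = 0.0111). The Wnt5a call was lost without any 1 shLuc library, and the decreases of the list numbered at most 1 there. These shares of Wnt genes are near those over all genes.

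**Figure D5:**
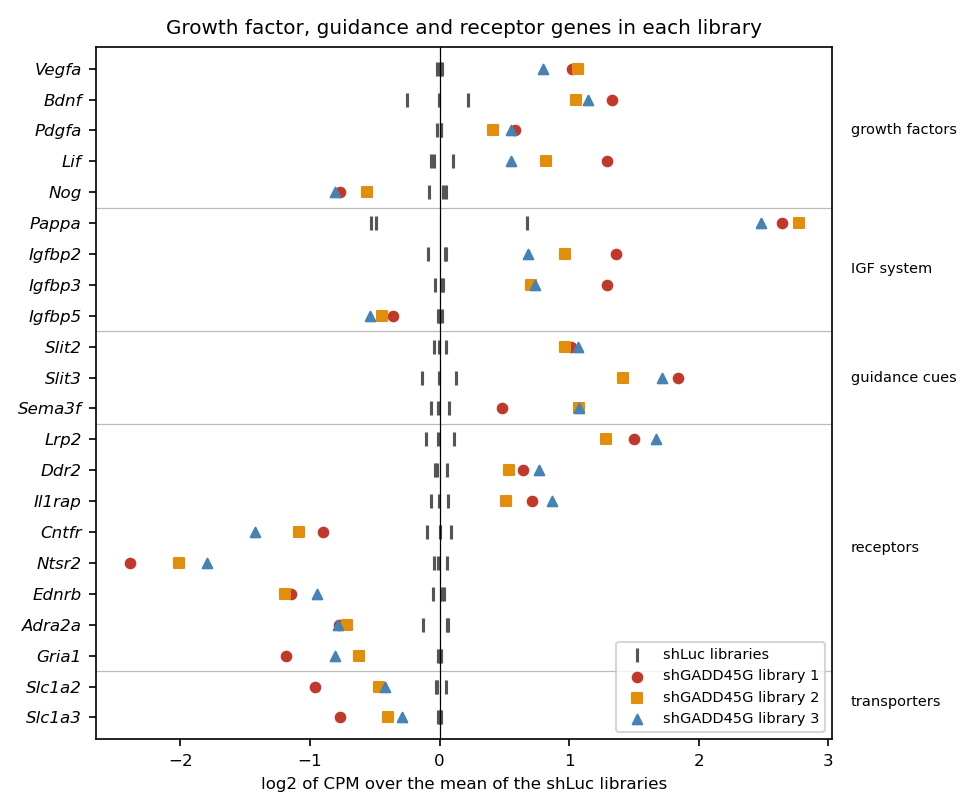
For 22 growth factor, IGF, guidance, receptor and glutamate transporter genes, the x axis gives log2 of CPM over the mean of the 3 shLuc libraries; grey ticks are shLuc libraries and coloured points shGADD45G libraries. Ligand and guidance points lie mostly right of 0 and transmitter receptor points left of 0, and Slc1a2, Slc1a3 and Ntsr2 are lowest in library 1.

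Stress kinase and growth arrest genes, which lie closest to what GADD45 proteins are known for, were also examined. Of 44 GADD45 and MAPK genes 7 rose and none fell, against 5.15% and 5.27% of all genes, with a median of 0.25. The kinase gene Mapk8 (JNK1) rose from 22.6, 19.6 and 20.2 CPM to 39.8, 33.7 and 35.9 CPM (log2 fold change 0.81, SE 0.11, adjusted p = 0.00177). With the microglia covariate Mapk8 was not called (0.44), and 2 of the 44 genes were called higher and 5 lower. Gadd45a (1.38) and Gadd45b (0.59), given at the start, were not called in that fit. Of 32 p53 target genes 9 rose and none fell, against the same shares of all genes. Their median was 0.34, with medians of 0.57, 0.20 and 0.22 in libraries 1, 2 and 3, so library 1 was the furthest from the controls. The cell cycle inhibitor gene Cdkn1a showed this too, at 641, 649 and 638 CPM in shLuc and 1319, 843 and 765 CPM in shGADD45G libraries, and missed the threshold (log2 fold change 0.60, SE 0.17, adjusted p = 0.054). With the microglia covariate 1 of the 32 was called higher and 2 lower, and without 1 shLuc library 3 were called higher, as were 3 GADD45 and MAPK genes.

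Of 45 cell cycle genes 4 rose, a share near the 5.15% of all genes, and none fell. Ccnd2, a D-type cyclin that starts the cycle, rose from 642, 631 and 659 CPM to 1385, 1366 and 1343 CPM (log2 fold change 1.08, SE 0.07, adjusted p = 0.000188) and was called without any 1 library and with the covariate (1.01). Ccnd1 rose from 382, 358 and 348 CPM to 1112, 618 and 587 CPM (log2 fold change 1.09, SE 0.21, adjusted p = 0.00977), led by library 1, its call was lost without shLuc library 2 or 3, and its value turned to -0.54 with the covariate. Of 25 NF-kB and chemokine genes 1 rose and 3 fell, where 5.27% of all genes fell. Of 32 cholesterol and fatty acid genes 2 rose. Both shares of increases were near the background, and no cholesterol gene was called without any 1 shLuc library. Other genes among the largest increases were Ppp1r16b, a phosphatase subunit gene, Pcdh11x, a protocadherin, Dlk2, a Delta-like membrane protein, and Tenm4, a teneurin. Their log2 fold changes ran from 1.84 to 2.24. Each call was lost without shLuc library 1 and without at least 1 other shLuc library. Tenm4 was at 3.96, 4.72 and 4.17 CPM and 7.05, 17.5 and 21.9 CPM, with library 1 nearest to the controls.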

How the data were processed

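Libraries from the total RNA of 3 shLuc and 3 shGADD45G astrocyte samples were analysed. Protein-coding genes held 98.66% to 98.81% of counts, and how RNA was selected for the libraries is not given here. Per the file headers, the authors' table holds read counts per gene, not normalized. The submitters' processing notes name mm10, STAR 2.5, HTSeq 0.6.1 and DESeq2, with no parameters. Sources used here do not say whether counting used strand, so overlapping genes, antisense genes and close copies such as Ifit3 and Ifit3b may share reads. Columns named shCtrl and shG45g were taken as shLuc and shGADD45G, with the same replicate number. Of the authors' deposited log2 fold changes and adjusted p-values, only the number past 0.05 in each direction was used.

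Counts were fitted anew with edgeR 4.0.16 in R 4.3.3, with TMM factors, filterByExpr (minimum count 10, minimum total 15), the quasi-likelihood F test without covariates, and Benjamini-Hochberg adjustment over all 14914 genes. The dispersion of a gene was shared by both groups, although their replicate spread was unequal. CPM values use the TMM factors, with counts over all listed genes as depth, and n = 3 libraries per group throughout. Per-library list medians use log2 CPM with a prior count of 0.5. The 36 gene lists, 9 of them for cell types, and the named genes were chosen with earlier results of these data known. No list was tested: counts called and medians are given. No gene of the blood and lung list passed the filter. The oligodendrocyte lineage list is not reported here. Named genes were Gadd45g, the 12 protein-coding genes per direction with the largest called change, with a mean of at least 1 CPM, groups that do not overlap and no place on the microglia lists, and the members of each list with the smallest p, at most 4. Some were left out for length. Outside this rule, and after their values were seen, Cx3cr1, P2ry12, Slc1a2, Slc1a3, Gfap, C3, Lcn2, Smoc2, Tnc, Vcan, Bcan, Ncan, Cspg5, Tgfbi, Atf4, Ddit3, Aldh18a1, Pycr1, Phgdh, Psat1, Slc7a3, Slc7a7, Slc16a10, Hspa5, Nars, Oas3, Gria1, Gria3, Adcyap1r1, Lif, Nog, Igfbp5, Cdkn1a, Tgfbr1 and the genes with promoter matches were named.

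Alternatives were relative log expression and upper quartile factors, DESeq2 1.42.0, limma-voom 3.58.1 with quality weights, no filter and at least 1 CPM in 3 libraries, a 2-fold minimum, each library left out, the replicate number as a block, the microglia covariate, and all 12 libraries in one fit. The edgeR step was run on simulated data with equal dispersion in both groups. That run cannot show how the test behaves at the unequal spread of these libraries. Promoters came from RefSeq (GRCm38.p6), matched by symbol.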

Additional observations from a re-analysis of the deposited data

How the results depend on the processing

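Scaling, filter and tool moved the counts of 768 higher and 786 lower less than leaving out a shLuc library did. Over relative log expression factors, upper quartile factors, DESeq2, limma-voom with quality weights, no filter and the stricter filter, 679 to 1063 genes were higher and 772 to 1045 lower. Every one of the 1554 genes called that was still tested kept its sign. A minimum of 2-fold left 106 higher and 332 lower, and fitting all 12 libraries together gave 1349 and 1321. Leaving out each library gave 239 to 1379 higher, 291 to 1366 lower, and a Gadd45g log2 fold change of -0.57 to -0.05. With the replicate block 761 were higher and 809 lower. Same-numbered libraries deviated together only weakly (r = -0.03, 0.07 and 0.04), so the numbers were not taken as pairs. Differences between shGADD45G libraries were above counting error at these depths (chi-square per degree of freedom 20.5 to 41.0).

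With the microglia covariate 584 genes were higher and 461 lower, 265 of the 1554 were called again, 1310 kept their sign, and Gadd45g turned to 1.44 (adjusted p = 0.0071). Among genes named by the fixed rule, log2 fold changes that reversed there were 0.40 for Igsf6, 0.49 for Milr1, 0.0169 for Fpr1, 0.95 for Lat2, 0.0135 for Ndrg2, -1.24 for Acta2, -0.22 for Serpinh1, -0.00566 for Angptl2, -0.0844 for Igfbp3, -0.54 for Ccnd1, -0.0749 for Mcm7, -0.22 for Hsd17b7 and -0.30 for Abca1. Other genes named above that reversed were Atf4, Slc1a2, Slc1a3, Gfap, Lif, Cspg5, Tgfbi, Cx3cr1, Slc16a10 and Tgfbr1, with their values there. The cause was not tested. The covariate moves with the group.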
